A study of Mus musculus with 56 samples.

Results

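Adcyap1, Hgf, Il5ra and Slitrk5 are the 4 genes with 3 H2A.Z peaks each in the authors' list of peaks that were higher in doxycycline-treated than in control mouse embryonic stem cells. They were chosen by that count, out of 275 genes with any higher peak, and together account for 12 of the 318 higher peaks. Higher peaks were 0.518% of the 61420 peaks of the H2A.Z set. The count that chose the genes is therefore a description, and no test was made of it or of anything that follows from it. From the first to the last higher peak of each gene the set held 38 peaks: the 12 higher peaks, 26 in neither list, and 0 in the list of lower peaks. Lower peaks were 14.8% of the whole set.

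The assay was CUT&Tag, which maps a protein on chromatin by guiding the Tn5 transposase to the antibody bound to it and sequencing the DNA that the enzyme cuts and tags. The cells were the RHKI line, derived from E14Tg2a embryonic stem cells, with an HA-Rnaseh1 knock-in that treated and control cells alike carried. Treated cells received 500 ng/ml doxycycline for 48 hours (4 H2A.Z libraries) and control cells received none (4 H2A.Z libraries), both in 2i/LIF medium with 2% FBS, 3 µM CHIR-99021, which inhibits GSK3, and 1 µM PD0325901, which inhibits MEK. The labels do not say how many clones the line stands for, and a line without the knock-in is not analysed here, so an effect of doxycycline itself cannot be told apart from that of Rnaseh1. The other 48 libraries of the series are not analysed here. The deposited lists hold positions and annotation, with no value per library, no fold change and no p-value. The depth and the spread between replicates behind each call are therefore unknown, as is the size of each change. The names of the lists say up and down, and these are taken to mean doxycycline against control.

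H2A.Z is a variant of histone H2A that remodelling complexes place in nucleosomes beside promoters and at enhancers, and in embryonic stem cells it marks active genes as well as silent developmental genes. RNase H1 is an enzyme that degrades RNA paired with DNA, and cells are made to express it in order to remove R-loops. Adcyap1 encodes PACAP, a neuropeptide that raises cyclic AMP through G protein-coupled receptors. Hgf encodes hepatocyte growth factor, a ligand that mesenchymal cells secrete and that activates the receptor tyrosine kinase MET on epithelial cells. Il5ra encodes the ligand-binding subunit of the interleukin-5 receptor of eosinophils and some B cells. Slitrk5 encodes a transmembrane protein of neurons with leucine-rich repeats that binds receptor protein tyrosine phosphatases across the synapse.

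None of the 4 genes had a changed peak at its own transcription start site (TSS), and they differed in whether the set held a peak there at all. Positions are on the GRCm38 build, which the file headers call mm10, counted from 1. A peak of 1270 base pairs (bp) in neither list covered both Hgf starts in the RefSeq promoter table (chromosome 5, 16552923 to 16554192). At Slitrk5 a peak of 7768 bp in neither list covered the start (chromosome 14, 111674391 to 111682158), and 99.2% of the set was narrower. At Adcyap1 the nearest peak, of 4291 bp and in neither list, began 788 and 637 bp past the 2 listed starts (chromosome 17, 93199805 to 93204095), inside the gene. At Il5ra the nearest peak lay 19.9 kb away, at the start of the neighbouring gene Trnt1 (chromosome 6, 106768922 to 106769549). In the RefSeq promoter windows (GRCm38.p6, 250 bases before to 50 after a start) the Slitrk5 window held 35 CG dinucleotides, more than 93.0% of the 32851 windows in the table. The windows of Adcyap1 held 7 and 10, those of Hgf 7 and 6, and that of Il5ra 4. The promoters of Hgf and Il5ra are shown because their 250 bases before a listed start lie outside the gene's RefSeq bounds. Those before the Adcyap1 and Slitrk5 starts, and before the other Hgf start, lie inside the bounds and are not shown. The equal CG count of the stretches shown played no part in that choice. An H2A.Z peak covers both Hgf starts and none lies near the Il5ra start. The Hgf stretch shown precedes the first of its 2 starts (16553495), while the authors' Hgf distances run from the other (16553901). Each sequence is the 250 bases before the start, 5′ to 3′ on the gene's strand, from RefSeq, with CG in capitals (a motif that reads the same on both strands). They lie at chr5:16553245-16553494 on the plus strand and at chr6:106749038-106749287 on the minus strand.
Hgf: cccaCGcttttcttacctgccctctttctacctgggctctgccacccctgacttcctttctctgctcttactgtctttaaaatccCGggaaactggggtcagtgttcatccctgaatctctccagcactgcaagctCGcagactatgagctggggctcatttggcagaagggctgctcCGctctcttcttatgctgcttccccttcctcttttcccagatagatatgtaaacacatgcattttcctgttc
Il5ra: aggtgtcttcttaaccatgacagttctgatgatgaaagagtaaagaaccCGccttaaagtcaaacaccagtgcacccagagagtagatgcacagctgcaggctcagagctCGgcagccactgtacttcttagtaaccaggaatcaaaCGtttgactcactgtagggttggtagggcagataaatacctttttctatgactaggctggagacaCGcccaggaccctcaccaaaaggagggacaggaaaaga
Each of these holds 4 CG dinucleotides, and 62.2% of all promoters in the table hold at least as many in the same stretch. The count of CG in these windows is a description and says nothing of what binds there.

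The 3 higher Adcyap1 peaks stood at opposite sides of the gene. Of 632, 665 and 907 bp, they lay on chromosome 17 at 92548668 to 92549299, 92607605 to 92608269 and 93531919 to 93532825. The first pair were 650.0 and 591 kb upstream of the TSS, and the third was 333 kb downstream. To the right of Adcyap1 the nearest protein-coding gene was Mettl4, a methyltransferase gene, 1516 kb away. The first and second peaks were 59.0 kb apart with 1 set peak between them, while the second and the third were 924 kb apart with 15 between them. All 16 set peaks in between were in neither list, from 501 to 4291 bp wide (median 1040 bp). The widest of these was the peak inside Adcyap1 itself. The files give no peak height, so any change in these peaks below the authors' threshold is unknown. Besides Adcyap1 the stretch held the lncRNA gene Gm32465, which overlaps Adcyap1, the pseudogenes Gm21018, Gm9665 and Gm6764 and the snRNA gene Gm25935.

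**Figure D1:**
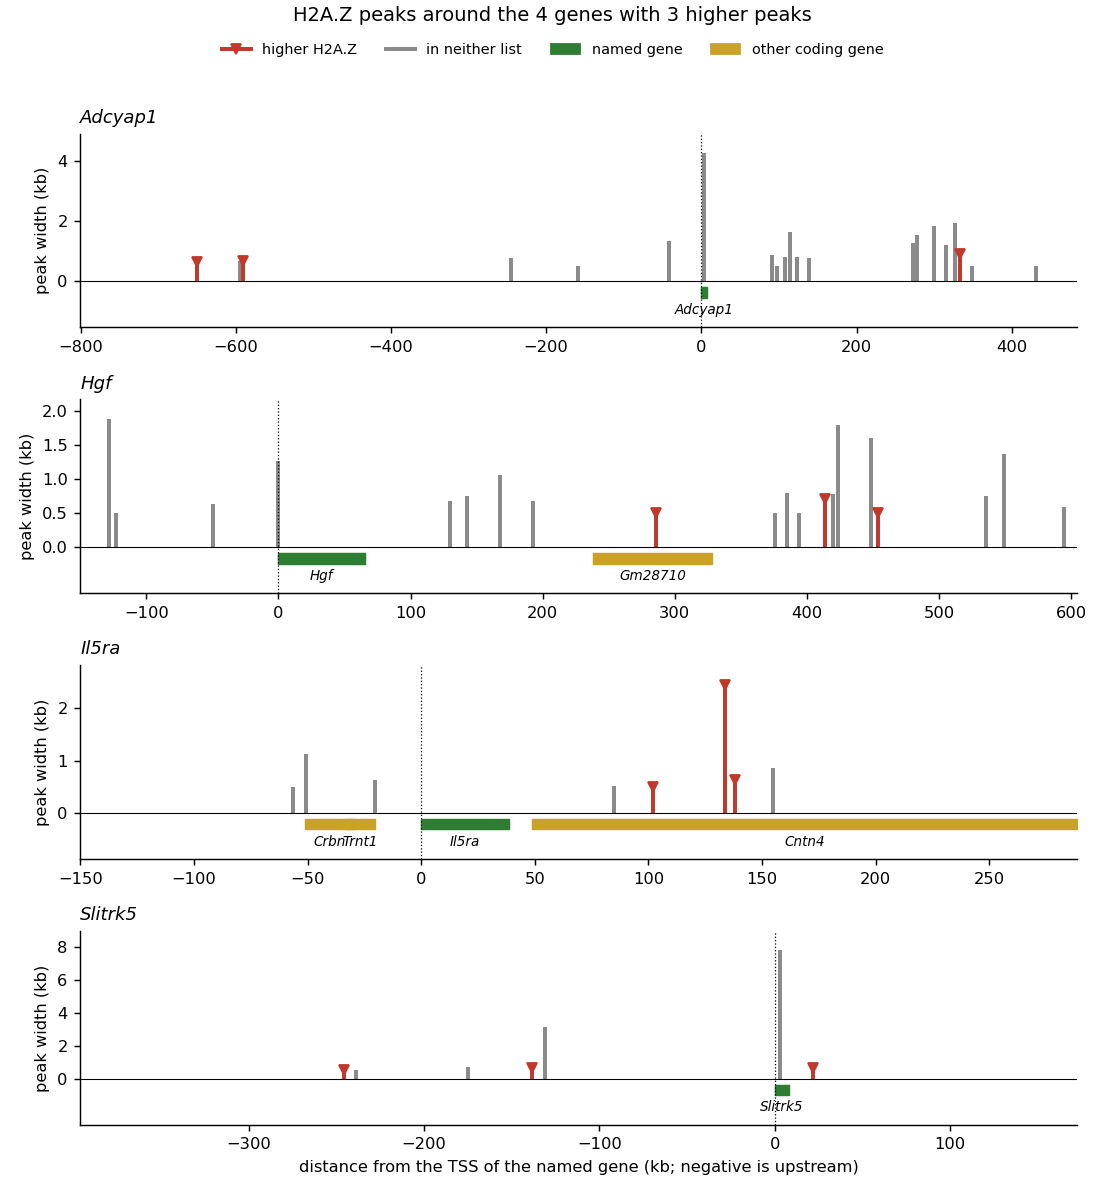
Peaks of the H2A.Z set around Adcyap1, Hgf, Il5ra and Slitrk5, by distance of the peak centre from the gene's TSS (kb, negative upstream; horizontal axis) and peak width (kb, vertical axis). Red lines with a triangle are the 12 higher peaks and grey lines are peaks in neither list. Bars below the axis are coding genes, green for the named gene. The 3 higher peaks at Il5ra have 0 other set peaks between them and lie over Cntn4.

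The 3 higher Hgf peaks all lay beyond the 3′ end of the gene. They were 501, 706 and 501 bp wide, at 16839458 to 16839958, 16967297 to 16968002 and 17007709 to 17008209 of chromosome 5, which is 286, 414 and 454 kb downstream of the TSS. The gaps between their centres were 128 and 40.3 kb, each with 3 set peaks in neither list between. These 6 peaks ranged from 501 to 1796 bp, with a median of 787 bp, and their widths overlapped those of the higher peaks. The authors' annotation calls all 3 intergenic. In the RefSeq table, however, the centre of the first lay within the bounds of Gm28710, a predicted coding gene (16791791 to 16882439), and that gene's right end was the nearest gene end to all 3, at 42.7, 85.2 and 126 kb.

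The 3 higher peaks assigned to Il5ra were next to each other in the set and lay inside another gene. They were 626, 2460 and 501 bp wide, on chromosome 6 at 106610492 to 106611117, 106614163 to 106616622 and 106646585 to 106647085. Their centres were 138, 134 and 102 kb from the Il5ra TSS, past the 3′ end of that gene. All were annotated to introns of the transcript NM_001109749, the first pair to intron 14 of 25 and the third to intron 15, and in the RefSeq table they fell within Cntn4, which encodes contactin 4, a neuronal cell adhesion molecule of the immunoglobulin superfamily. Cntn4 spans 1023 kb (105677632 to 106700141) and ends 10.2 kb before Il5ra. It held 6 set peaks, of which these 3 were higher, 3 were in neither list and 0 were lower. The gaps between the higher peaks were 4.59 and 31.4 kb, with 0 set peaks between them. Among the 318 higher peaks this was the only run of 3 that followed each other in the set; there were 7 runs of 2, and 301 higher peaks had no higher peak next to them. The 2460 bp peak was the widest of the 12, and 84.7% of the set was narrower.

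The higher Slitrk5 peaks flanked the gene, with 1 close to it. They were 501, 629 and 629 bp wide, on chromosome 14 at 111429193 to 111429693, 111536441 to 111537069 and 111696684 to 111697312. The first pair lay 246 and 138 kb upstream of the TSS, and the third was 21.9 kb downstream of it, or 13.9 kb beyond the gene's end. In the authors' annotation the third was the nearest to a TSS of all 12. The gaps were 107 and 160 kb, each with 2 set peaks in neither list. Those 4 peaks ranged from 501 to 7768 bp and include the wide peak over the Slitrk5 start, which is the set peak next to the third higher peak, 18.7 kb away from centre to centre. Slitrk5 lay 920 kb from Slitrk6 to the left, a gene of the same family, and 3409 kb from the glypican gene Gpc5 to the right. The lncRNA genes LOC115488373 and Gm30439 and the pseudogene Gm18580 lay in the same stretch, and the first higher peak was 2.77 kb from the nearer end of LOC115488373.

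As a group the 12 peaks were far from starts in the authors' annotation, at a median of 266 kb (21.9 to 650.0 kb). Across the other 306 higher peaks the median was 105 kb (0.463 to 1318 kb), and across the lower peaks it was 5.57 kb. Of the 12, 11 lay over 100 kb from a TSS, against 158 of the other 306 higher peaks (51.6%) and 868 of the 9077 lower peaks (9.56%). Each peak was assigned to its nearest TSS, so these distances are not independent of how the genes were chosen. In orientation, 4 of the 12 were upstream and 8 downstream of the start.

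**Figure D2:**
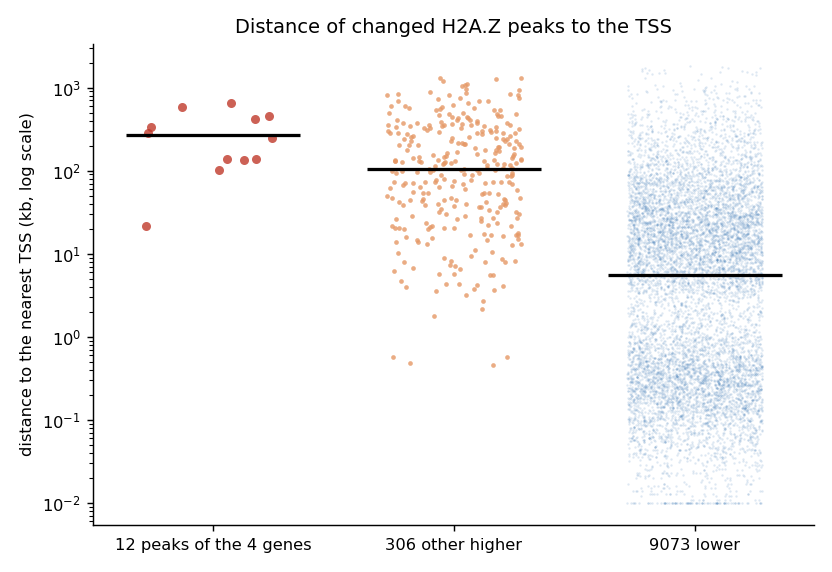
Distance from the peak centre to the nearest TSS in the authors' annotation (kb, log scale) for the 12 higher peaks of the 4 genes, the other higher peaks and the lower peaks with a distance. Points are peaks, black lines are medians, and distances under 0.01 kb are drawn at 0.01 kb. The 12 peaks have a median of 266 kb, and 1 of them, at Slitrk5, lies under 100 kb.

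Spacing ranged widely among the 4 genes. The 8 gaps between neighbouring higher peaks of one gene ran from 4.59 kb at Il5ra to 924 kb at Adcyap1, with a median of 83.1 kb, and 3 of the 8 were under 50 kb. Over all higher peaks on the same chromosome the 298 gaps, these 8 included, had a median of 2982 kb, and 15 were under 50 kb. Peaks of one gene share their nearest TSS, so gaps within a gene are short by the way the genes were chosen. The difference between these medians is therefore no sign of clustering. Just below the threshold of 3 stood 32 genes with 2 higher peaks, whose gaps had a median of 136 kb (6.01 to 1480 kb). The closest pairs were at the microRNA gene Mir691 (6.01 kb), the odorant receptor gene Olfr820 (6.21 kb), Ptprd (8.51 kb) and Gm20756 (10.3 kb), all 4 with no set peak between. Ptprd encodes a receptor phosphatase that SLITRK proteins bind. The widest pairs were at Gm32455 (1480 kb), Got2, which encodes a mitochondrial aspartate aminotransferase (958 kb), Edil3, which encodes an integrin-binding matrix protein (792 kb), and Cntn5, a contactin gene like Cntn4 (697 kb). Of the 8 gaps of the 4 genes, the shortest, at Il5ra, lay below the range of those of genes with 2 higher peaks, and the others lay within it. Of the 32 genes, 12 also had a lower peak assigned to them and 20 had none. Adcyap1, Hgf, Il5ra and Slitrk5 had 0 each. A lower peak was assigned to 26.5% of all protein-coding genes in RefSeq. With only 4 genes, a count of 0 therefore does not set them apart.

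**Figure D3:**
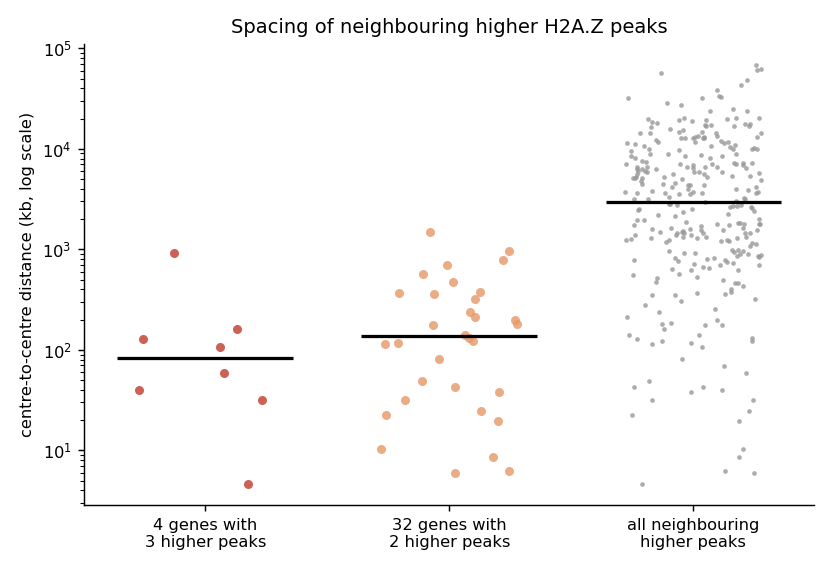
Distance between the centres of neighbouring higher peaks (kb, log scale): the 8 gaps within Adcyap1, Hgf, Il5ra and Slitrk5, the gaps of the 32 genes with 2 higher peaks, and all 298 gaps between neighbouring higher peaks on a chromosome. Points are gaps and black lines are medians. Those within the 4 genes span 4.59 to 924 kb. Peaks of one gene share their nearest TSS, which by itself shortens the gaps within a gene.

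Repeat annotation varied among the 4 genes. All 3 Slitrk5 peaks were centred in a named repeat: MLTR25A and RLTR13C2, long terminal repeats of the ERVK family of endogenous retroviruses, upstream, and Lx7, an older L1 element, downstream. At Adcyap1 only the second peak was in a repeat, the ERVK long terminal repeat RLTR13G, and at Hgf only the third, in RMER15, a long terminal repeat of the ERVL family. None of the 3 Il5ra peaks was in a named repeat. In all, 5 of the 12 peaks lay in a repeat (41.7%, 95% exact Clopper-Pearson interval 15.2 to 72.3%), against 142 of the other 296 higher peaks in introns and intergenic DNA (48.0%, 42.2 to 53.8%) and 1591 of 5193 lower peaks there (30.6%, 29.4 to 31.9%). Long terminal repeats held 4 of the 12 (33.3%, 9.92 to 65.1%), 102 of the other 296 (34.5%, 29.1 to 40.2%) and 196 of the lower peaks (3.77%, 3.27 to 4.33%). The share of the 12 in repeats was thus close to that of the other higher peaks, and the interval on 12 peaks is wide. These intervals cover counting only. RLTR13G held 11 higher and 0 lower peaks in all, RLTR13C2 3 and 0, MLTR25A 1 and 0, RMER15 3 and 2, and Lx7 5 and 1. Mappability was not analysed. Peaks in neither list carry no repeat annotation in the files.

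The 12 peaks were mostly narrow. Their median width was 629 bp (501 to 2460 bp), against 501 bp in the other higher peaks, 1034 bp in the lower peaks and 977 bp in the whole set. Of the 12, 4 had the minimum width of 501 bp, as did 163 of the other 306 (53.3%).

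By the median, their surroundings held fewer H2A.Z peaks than those of the other higher peaks, and almost no lower ones. Within 500 kb of its centre each of the 12 had 5 to 22 other set peaks (median 10.5), against a median of 16 around the other higher peaks, 39 around lower peaks and 34 over the whole set. The first pair of Adcyap1 peaks had the fewest, 5 each, while the third had 22, and the Hgf peaks had 20 or 21. For 11 of the 12 there were 0 lower peaks in that window, and the third Adcyap1 peak had 1, at 455 kb. The share with none was 37.9% among the other higher peaks (116 of 306) and 14.3% over the whole set. The nearest lower peak was 1018 and 1077 kb from the first pair of Adcyap1 peaks, 670 to 838 kb from the Hgf peaks, 654 to 690 kb from the Il5ra peaks and 5229 to 5390 kb from the Slitrk5 peaks. Peaks of one gene share a neighbourhood, so the 12 are not independent, and these figures describe 4 loci.

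**Figure D4:**
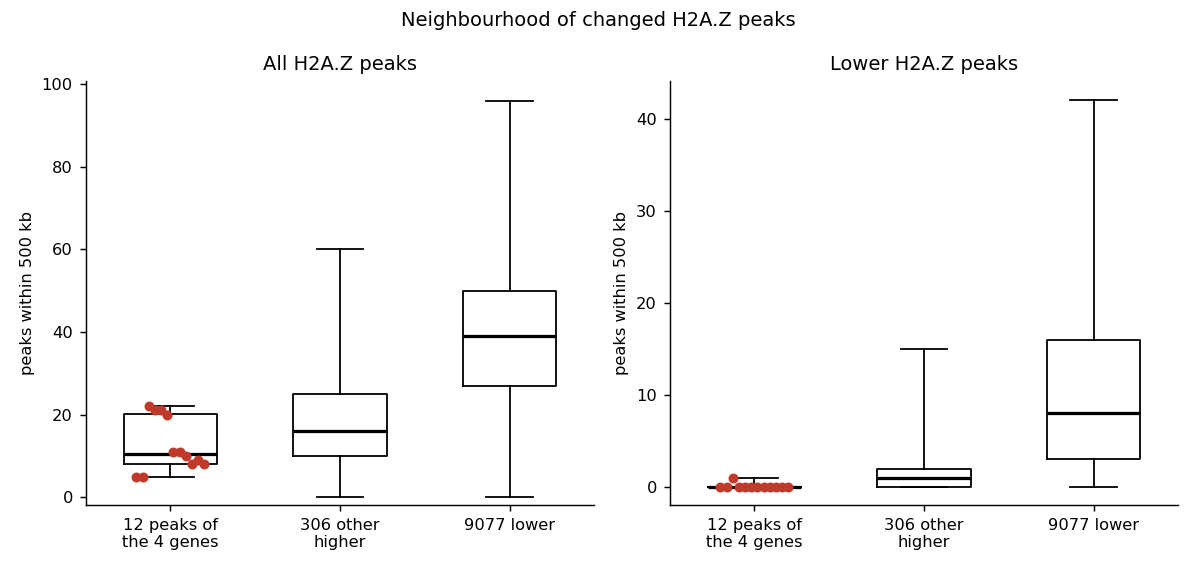
Number of other H2A.Z set peaks (left) and of lower H2A.Z peaks (right) centred within 500 kb of each changed peak, for the 12 higher peaks of the 4 genes (red points), the other higher peaks and the lower peaks. Boxes span the quartiles with the median as a thick line, and whiskers reach the lowest and highest value. Lower peaks are absent around 11 of the 12.

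The partners of these genes, taken from 4 lists of their ligands, receptors and signalling proteins, were read from the same 2 lists of peaks. As a background, 26.5% of the protein-coding genes of the RefSeq table had a lower peak assigned to them, 14.6% had one centred within 1 kb of a TSS, and 0.918% had a higher peak. The partner lists are short and were chosen with earlier results of these data known, so no count in them was tested against this background. In the PACAP and VIP list (12 genes) Adcyap1 was the only gene with a higher peak, and 9 had a lower one, 8 of them within 1 kb of a TSS. All 3 receptors were among these. The lower peak was centred 308 bp past the start of Adcyap1r1, the PACAP receptor gene (1312 bp wide), 29 bp before that of Vipr1 (2210 bp) and 23 bp before that of Vipr2 (1265 bp). The adenylate cyclase genes Adcy2, Adcy5 and Adcy8 and the transcription factor genes Creb1 and Crem, which act downstream of cyclic AMP, had one within 1 kb too. At Gnas, which encodes the stimulatory G protein subunit, the lower peaks were 1.09 and 2.05 kb from a TSS. The ligand gene Vip and Adcy1 had no changed peak.

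In the HGF and MET list (13 genes) Hgf alone had a higher peak, and 7 had a lower one, 6 of them within 1 kb of a TSS. These 6 were the HGF-related ligand gene Mst1 (4766 bp wide, 413 bp from the start), its receptor gene Mst1r, the protease genes St14 and Hpn, which act in activating HGF, and the genes of the inhibitors of those proteases, Spint1 and Spint2. St14 had 3 lower peaks. Plxnb1, which encodes a semaphorin receptor that associates with MET, had a lower peak 24.4 kb from its TSS. Met itself, the activator gene Hgfac and the adaptor genes Gab1, Grb2 and Sos1 had none. In the IL-5, IL-3 and GM-CSF list (12 genes) Il5ra alone had a higher peak and 2 genes had lower ones within 1 kb of a TSS: Csf2ra, the GM-CSF receptor subunit gene, and Stat5a, with 3 lower peaks. Il5, the ligand gene, Csf2rb, the signalling subunit that pairs with Il5ra, and the other 7 had none.

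In the SLITRK list (9 genes, with the receptor phosphatases that SLITRK proteins bind) Slitrk5 and Ptprd had higher peaks, and 4 genes had lower ones. The Ptprd pair lay 328 and 320 kb downstream of the start on chromosome 4 (76015893 to 76016393 and 76024337 to 76024967), both in introns, the second at the repeat MER126. The 3 SLITRK genes with lower peaks were Slitrk2, at 504 and 662 kb, Slitrk3, at 30.8 kb, and Slitrk4, at 212 and 284 kb. The Slitrk5 higher peaks were in 2 ERVK long terminal repeats and an Lx7 element, and all 5 of these lower peaks lay in L1Md elements, young L1 retrotransposons. The 2 lists differed in the same way as a whole: in introns and intergenic DNA, ERVK elements held 28.6% of all higher and 2.33% of all lower peaks, and L1Md elements held 0.325% of all higher and 18.6% of all lower peaks. Ptprf had a lower peak 960.0 bp from its TSS, and Slitrk1, Slitrk6 and Ptprs had no changed peak. Expression was not analysed here for any of these genes.

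The link between the 12 peaks and their genes rests on the rule of the nearest TSS and on which genes are counted. By the nearest end of a protein-coding gene in the RefSeq table, Adcyap1 and Slitrk5 kept all 3 of their peaks and Hgf and Il5ra kept 0, since the Hgf peaks went to Gm28710 and the Il5ra peaks to Cntn4. By the nearest end of a gene of any type, Slitrk5 kept 1 peak and the other 3 genes kept 0. Both ends of Gm28710 lay nearer to each Hgf peak than the Hgf TSS did, so those peaks moved with the genes counted. The same held for the Adcyap1 peaks and the first pair of Slitrk5 peaks, with pseudogenes or an lncRNA gene. The Il5ra peaks lay nearer to the Il5ra TSS than to the listed Cntn4 starts, so the use of gene ends moved them. Contact between these peaks and any promoter was not measured.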

How the data were processed

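H2A.Z CUT&Tag data of 4 doxycycline and 4 control libraries were used as the authors deposited them: a set of peak positions and 2 lists of higher and lower peaks. The tools named by the submitters' processing notes are deepTools, HOMER, Picard, Bowtie2 and Trimmomatic, with the GRCm38 build, and per the file headers the lists were annotated with HOMER annotatePeaks on mm10. No source used here gives the versions, the peak caller, the test, its threshold or any pooling of replicates. The deposited peak score is 0 in every row and was not used.

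All 318 higher and 9077 lower peaks matched a set peak exactly. Starts are printed counting from 1. Distances to the TSS are the authors', gaps run from centre to centre unless stated, and a repeat is the element the authors' annotation names at the peak. Gene bounds and promoters came from RefSeq tables (GRCm38.p6), which held all 4 genes. Genes were named by a written rule: the 4 genes, every gene between their first and last higher peak, the 4 closest and 4 widest pairs among genes with 2 higher peaks, and members of 4 partner lists with a changed peak. The nearest coding genes outside these stretches, and genes named for their count by another assignment rule, were added after their values were seen. The members and lists were chosen with earlier results of these data known, so nothing was tested. Counting functions were tested on simulated data. Depth per sample is unknown. Computation used SciPy 1.17.1, pandas 2.3.3 and numpy 2.4.6 in Python 3.11.15, and matplotlib 3.10.9 for figures.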

Additional observations from a re-analysis of the deposited data

How the results depend on the processing

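Of the alternatives, those on spacing (edge to edge), repeats (long terminal repeats only), distance (to the nearer gene end) and minimum-width peaks changed no per-gene value by over 1.5 times. For spacing and distance the value compared was the median of each of the 4 genes, and single values could change more. The shortest Il5ra gap was 4.588 kb between centres and 3.045 kb edge to edge. The third Slitrk5 peak lay 21.9 kb from the TSS and 13.9 kb from the gene's end. With the first and last higher peak left out, the share of higher peaks in a stretch was 5.88% at Adcyap1 (15.8% with them) and 14.3% at Hgf (33.3%). It was 100% at Il5ra (100%) and 20% at Slitrk5 (42.9%). By the choice of the genes 1 higher peak remains in each stretch, and at Il5ra it is the only peak left. These shares are therefore no independent check. With 100 kb added on each side the share was 14.3% at Adcyap1, 25% at Hgf, 60% at Il5ra and 42.9% at Slitrk5. Each share lay within the wide counting interval of its main value. With RefSeq gene ends of any type in place of the authors' TSS annotation, the higher peaks assigned numbered 0 at Adcyap1, 0 at Hgf, 0 at Il5ra and 1 at Slitrk5. With protein-coding ends they numbered 0 at Hgf and 0 at Il5ra, and the 3 at Adcyap1 and the 3 at Slitrk5 stayed. A threshold of 2 higher peaks takes the genes from 4 to 36. Extending the Il5ra stretch by 100 kb on each side takes its set peaks from 3 to 5, the other 2 in neither list. In a window of 1 Mb the peaks per Mb were 22 at Hgf (53.3 in its own stretch), 11 at Il5ra (82.0) and 10 at Slitrk5 (26.1), by construction, since the stretches are shorter and begin and end at a peak; at Adcyap1 they were 19 (19.3). No paired analysis was possible because the files hold no value per library, and for the same reason no replicate could be left out. The calls of higher and lower peaks could not be recomputed, and depth, which limits every call, is unknown.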

Other observations

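Counted by the nearest end of a protein-coding gene, 8 genes had 3 higher peaks: Adcyap1, Slitrk5, Cntn4, Gm28710, Ptprd, Robo1, which encodes an axon guidance receptor, Ptprc, the leukocyte phosphatase CD45, and G6pd2. Counted by the nearest end of any gene, 2 genes had 3, Cntn4 and Gm28710, and no gene had more under either count. Robo1, Ptprd, Ptprc and G6pd2 had 2 each in the authors' annotation.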
